A study of Mus musculus with 47 samples.

Results

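The gene body peaks outside introns are 211 binding sites of the circadian transcription factor CLK:BMAL1 that the authors' peak list places in the body of a gene but neither in an intron nor at a transcription start site (TSS). They make up 6.56% of the 3217 peaks in the list, and they were chosen by that location label alone, with no use of the MNase signal. Chromatin around them was measured by MNase-seq in livers of adult C57BL/6 mice aged 3 to 6 months and kept in 12 h of light and 12 h of dark. Wild-type mice gave 24 libraries, 4 at each of 6 zeitgeber times (ZT, hours after lights on: ZT02, ZT06, ZT10, ZT14, ZT18 and ZT22). Bmal1-/- mice, whose titles carry the letters BM and which the series' design text calls Bmal1-/-, gave 23 libraries, 4 at each time except 3 at ZT22. Nuclei of both genotypes were crosslinked with formaldehyde before digestion, and no other treatment or allele is named in the labels.

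CLK (CLOCK) and BMAL1 form a heterodimer of basic helix-loop-helix proteins that binds E-box motifs and drives the Period and Cryptochrome genes, whose products feed back on it. In mouse liver the pair binds DNA rhythmically, mostly during the light phase, and mice without BMAL1 have no working molecular clock. Micrococcal nuclease digests linker DNA and spares DNA wrapped on nucleosomes, so a dip in the signal of mononucleosome fragments marks DNA that few such fragments covered.

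The 211 peaks lay on 20 chromosomes (mm9), most often on chromosome 4 with 21 peaks, chromosome 7 with 18 and chromosome 9 with 16. The whole list had 230, 226 and 183 peaks there, so the class made up 9.1%, 8.0% and 8.7% of them, against 6.56% of the list. Their median width was 310 bp, against 309 bp over the whole list, and the widths ran from 140 to 579 bp. The list is ordered, and wider peaks stand earlier in it, but what ranks it is not stated in the labels or headers. Over 10 successive portions of the list of equal size, the class took 25, 16, 19, 28, 26, 21, 21, 19, 24 and 12 peaks. Class peaks thus made up 7.76% of the first portion and 3.74% of the last. The earliest class peak in the list, at place 20, was chr19:23210011-23210590 (mm9), which with 579 bp was also one of the widest. It was followed by chr17:8541841-8542260 at place 22 and chr9:107577311-107577730 at place 59. The narrowest, at 140 bp, was chr9:107577181-107577321 at place 3023. The gene, exon or untranslated region at these positions was not analysed here.

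Some class peaks sit close together. The 3 kb windows of 40 of the 211 peaks (19.0%) overlapped the window of another peak, against 19.6% over the list. Within the class, 28 peaks formed 13 overlapping groups. The group around the earliest peak also held chr19:23210941-23211460 and chr19:23211201-23211381, and the narrowest peak overlapped chr9:107577311-107577730 and chr9:107576771-107577311. Counted once for each pair of windows, the class also had 12 overlaps with TSS peaks, 10 with intron peaks, 3 with intergenic peaks near a gene and 1 with a farther one, so the profiles of the classes share a little DNA.

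The signal is the authors' scaled coverage averaged over peaks, so it gives 1 profile per mouse for all 211 peaks and no value for a single peak or gene. For the same reason the deletion of Bmal1 could not be checked in these libraries. The profile was obtained by taking the summed signal of the 1412 intron peaks from that of all 1623 gene body peaks at each of 300 positions, 10 bp apart. Fragment counts were inferred from the scaled values, by taking the step that divides their sums into whole numbers as 1 fragment. On that reading, summed over the 211 peaks, a position in the centre was covered by 1771 to 3490 fragments per library. The counting error would then be 1.69% to 2.38%, which covers sampling of fragments alone. Central signal was averaged over the 300 bp around the window middle (150 bp to each side) and flank signal over everything more than 1000 bp away, and relative central signal expresses the first as a percentage of the second. Differences in it are in percentage points. A series is the set of mice of 1 genotype that carry the same replicate number across the times. What the number marks is not stated in the labels, so a series is a way of grouping different mice and not a known shared origin. Each genotype has 4 series, and the exact permutation test of 4 against 4 cannot give a p below 0.0286. The genotypes share no replicate number, so a genotype difference cannot be told apart from a difference between the sets of numbers.

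In wild type the class had a central dip. The mean profile fell to its minimum of 68.6% of the flank 35 bp left of the middle, and in Bmal1-/- to 78.6% at 75 bp left of it. At 315 bp left of the middle the wild-type profile stood at 97.3% and the Bmal1-/- profile at 101%, and at 285 bp right of it they stood at 92.4% and 96.6%. Farther out the wild-type profile was uneven. It dipped to 90.3% at 795 bp left of the middle and 91.2% at 765 bp right, and it peaked at 105% at 1025 bp right. The Bmal1-/- profile had the same outer dips, at 92.2% and 94.9% at these positions. Over the 260 positions more than 200 bp from the middle, the genotypes' mean profiles correlated with Pearson's r = 0.886. This is a description over neighbouring positions of the same 211 peaks, which share fragments and DNA sequence. The wild-type SD over these positions was 3.96 points in this class and 2.53 points in introns, whose profile averages more peaks.

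**Figure D1:**
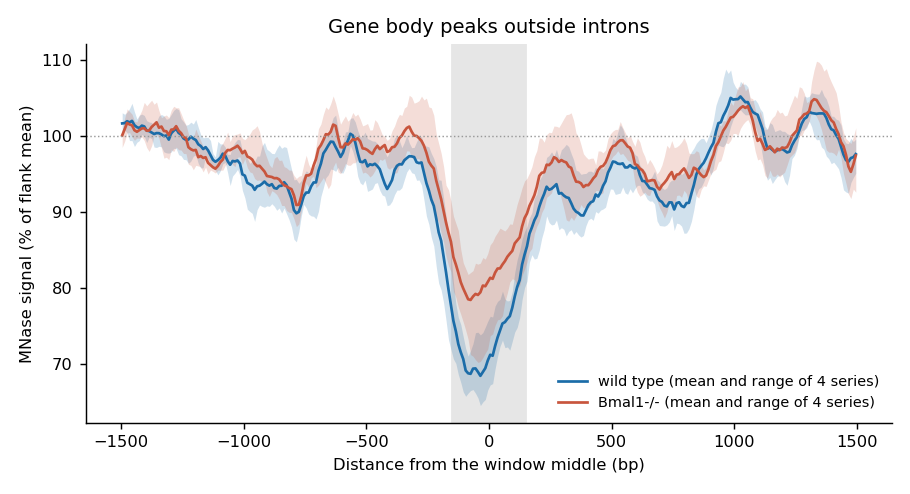
Mean MNase signal in percent of the flank mean (y axis) by distance from the window middle in bp (x axis) for the 211 peaks, with lines for the mean and bands for the range of 4 series per genotype, and the central 300 bp in grey. Both genotypes dip in the centre, to 68.6% in wild type and 78.6% in Bmal1-/-, and share the outer dips near 795 bp left and 765 bp right.

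The central dip was shallower in mice without BMAL1. Relative central signal averaged 76.1%, 70.7%, 72.8% and 74.9% in wild-type series 11, 12, 26 and 27. In Bmal1-/- series 5, 8, 9 and 10 it averaged 81.0%, 76.7%, 85.8% and 85.9%. Every Bmal1-/- series lay above every wild-type series, with Bmal1-/- series 8 next to wild-type series 11. The means were 73.6% ± 2.36 and 82.4% ± 4.42 (mean ± SD over 4 series each) and lay 8.73 points apart (two-sided exact permutation test, p = 0.0286, the smallest the design allows). Single mice did overlap: 10 of 23 Bmal1-/- mice lay above the highest wild-type mouse, and 3 of 24 wild-type mice lay below the lowest Bmal1-/- mouse. The spread of mice within a genotype and time was 4.51 points (SD) in wild type and 6.89 points in Bmal1-/-.

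This call rests on few series. With a centre of 100 or 250 bp on each side, or with the flank taken beyond 750 bp, the difference stayed positive and the exact p was 0.0571. The exact p was also 0.0571 without wild-type series 11, 12, 26 or 27. There the remaining series still did not overlap. With groups of unequal size, another arrangement of these series gave an absolute difference at least as large. With single mice as the unit and genotype permuted among the mice of each time, the difference was 8.98 points (permutation test, p = 1e-05, the smallest that 100000 resamples can give), an alternative that takes mice of the same number as independent. Without Bmal1-/- series 8, the lowest of its genotype, it was 10.6 points (exact p = 0.0286).

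On the authors' scale, the central signal averaged 5.40 ± 0.313 in wild type and 5.86 ± 0.526 in Bmal1-/- series (SD, n = 4 each, exact permutation test, p = 0.229). The flank signal averaged 7.34 ± 0.349 and 7.11 ± 0.448 (exact permutation test, p = 0.429). Neither scaled level passed the test alone, and the difference in relative central signal combined a knockout centre that was 8.43% above the wild-type mean with a knockout flank at -3.13% relative to it. Both parts moved with single series: without series 8 the central difference was 0.715 (exact p = 0.0571) and the flank difference -0.0671, and without series 5 they were 0.329 and -0.429 (exact p = 0.343 and 0.171). The shoulders of the dip, from 200 to 500 bp on both sides, stood at 93.4% ± 2.19 of the flank in wild type and 97.0% ± 2.77 in Bmal1-/- (n = 4 series each, exact permutation test, p = 0.143).

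The minimum of the dip, taken in each series, was 67.3% ± 2.61 in wild-type and 77.7% ± 5.28 in Bmal1-/- series (SD, n = 4 each), 10.5 points apart, and did not pass (exact permutation test, p = 0.0571). No difference in width was detectable. The width at the level midway between minimum and flank was 323 ± 49.2 bp in wild type and 320 ± 69.3 bp in Bmal1-/- series (SD, n = 4 each, exact permutation test, p = 1.0). Widths were 360 and 370 bp in wild-type series 11 and 12 and 280 bp in series 26 and 27, so the series of 1 genotype differed by more than the genotypes did. In Bmal1-/- they were 420, 300, 260 and 300 bp for series 5, 8, 9 and 10. Intron and intergenic peaks split alike by wild-type series. For series 11, 12, 26 and 27 the widths were 360, 350, 260 and 260 bp in introns. They were 340, 320, 260 and 260 bp at near and 360, 330, 260 and 260 bp at far intergenic peaks. TSS widths were 260, 290, 260 and 270 bp.

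The dip was lopsided in all 8 series. The left side of the centre averaged 70.5% of the flank and the right side 76.7% in wild-type series, against 80.3% and 84.4% in those without BMAL1. Left minus right ran from -8.33 to -5.04 points over the wild-type and from -6.21 to -1.82 points over the Bmal1-/- series. The genotype difference was 9.77 points on the left and 7.69 points on the right (exact permutation tests, p = 0.0286 each), and the lopsidedness itself did not pass the test between genotypes (2.08 points, exact permutation test, p = 0.171). The lean was not particular to the class. Left minus right was also negative in every series of the intron, TSS and far intergenic peaks, with wild-type means of -2.25, -4.90 and -5.06 points. Near intergenic series went both ways. In introns the lopsidedness differed between genotypes by 1.23 points (exact permutation test, p = 0.0286). The orientation of the windows is not stated in the labels or headers, so left and right are those of the deposited profile.

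Along the profile, 350 bp of the class were higher in Bmal1-/- and 0 bp lower at an adjusted p under 0.05 (limma over the 1500 positions of 5 classes, Benjamini-Hochberg), where 13.9% of all those positions were called higher and 0% lower. A run of 300 bp from 175 bp left to 115 bp right of the middle was higher by 9.37 points on average, and a second run of 50 bp, from 435 to 395 bp left, by 4.63 points. The largest difference of 12.0 ± 2.10 points (SE) lay 25 bp left of the middle (limma, adjusted p = 3.71e-05). In introns 580 bp were called, at far intergenic peaks 650 bp, at near ones 390 bp and at TSS peaks 110 bp. These widths treat mice as independent. When limma was run on 1 mean per series instead, 0 bp of the class passed, with 400 bp at an unadjusted p under 0.05. With mice as the unit, it called 130 bp on log2(scaled signal + 5.54). That alternative uses the authors' scale and does not divide by the flank, so it differs from the main fit in more than the logarithm.

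**Figure D2:**
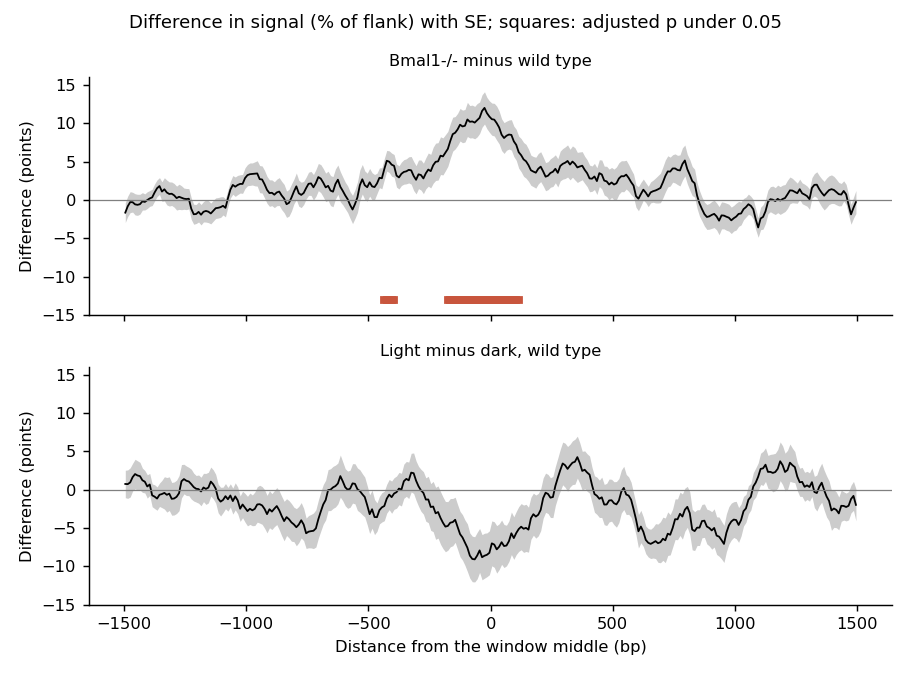
Difference in MNase signal in percentage points of the flank (y axis) by distance from the window middle in bp (x axis) for Bmal1-/- minus wild type (top) and wild-type light minus dark (bottom), with SE as grey bands and squares at positions with an adjusted p under 0.05. The genotype difference is highest, at 12.0 points, 25 bp left of the middle, and the light minus dark difference is lowest, at -9.08 points, 65 bp left of it with no position called.

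By time of day, the genotype means lay farthest apart at the 3 light times. At ZT02 the wild-type mice 11, 12, 26 and 27 had relative central signals of 72.7%, 71.5%, 71.7% and 74.4%, and the Bmal1-/- mice 5, 8, 9 and 10 had 84.7%, 83.2%, 87.8% and 86.9%. All 4 Bmal1-/- mice lay above all 4 wild-type mice, with means 13.1 points apart. At ZT06 the wild-type mice stood at 69.4%, 62.8%, 67.4% and 75.2%, and those without BMAL1 at 77.9%, 69.8%, 86.7% and 89.1%. Here mouse 8 fell below the highest wild-type mouse, and the means differed by 12.2 points. At ZT10 wild-type mice had 66.6%, 71.2%, 68.3% and 70.7%, and Bmal1-/- mice had 75.5%, 82.4%, 80.6% and 81.8%. Again the genotypes did not overlap, and the means differed by 10.9 points.

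In the dark the genotypes overlapped at each time. The wild-type mice at ZT14 had 84.6%, 74.2%, 80.3% and 70.9% and the Bmal1-/- mice 77.1%, 80.4%, 86.6% and 78.5%, a difference in means of 3.17 points. At ZT18 the wild-type values lay close together at 79.6%, 75.3%, 78.3% and 78.2%, while the Bmal1-/- values of 80.5%, 67.8%, 85.7% and 97.2% spread on both sides of them, 4.94 points higher on average. At ZT22 wild-type mice had 83.7%, 69.4%, 70.7% and 79.9%, and the Bmal1-/- mice 5, 9 and 10 had 90.2%, 87.6% and 82.0%, 10.7 points higher on average. The groups without overlap were those at ZT02 and ZT10. Their exact permutation p was 0.0286 each and 0.0857 after Benjamini-Hochberg adjustment over 6 times, and the adjusted p of the other times ran from 0.114 to 0.486, so no single time passed. Without replicate 8 the adjusted exact p was 0.0429 at ZT02, ZT06, ZT10 and ZT18.

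Averaged by series over the 3 light times, the dip stood at 70.2% ± 2.24 with BMAL1 and 82.2% ± 3.83 without it (SD, n = 4 each), 12.0 points apart (exact permutation test, p = 0.0286). Over the dark times, where series 8 has only ZT14 and ZT18, it was 77.1% ± 4.02 and 82.3% ± 5.74, a difference of 5.22 points (exact permutation test, p = 0.2).

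**Figure D3:**
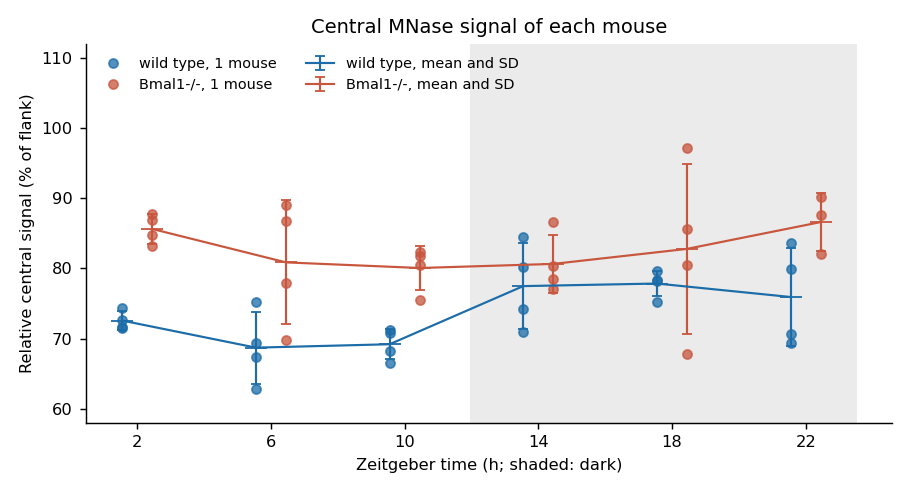
Relative central signal in percent of the flank (y axis) for each mouse (points) by zeitgeber time in h (x axis, dark shaded), with lines through the means and bars for the SD of 4 mice, or 3 Bmal1-/- mice at ZT22. Wild-type mice sit between 62.8% and 75.2% in the light and between 69.4% and 84.6% in the dark, and at ZT02 and ZT10 all Bmal1-/- mice lie above them.

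Wild-type mice had a deeper dip in the light than in the dark. The 12 light-phase mice ran from 62.8% to 75.2% with a median of 71.0%, and the 12 dark-phase mice from 69.4% to 84.6% with a median of 78.3%. The ranges overlapped, although 8 dark-phase mice lay above every light-phase mouse. Means were 70.2% ± 3.49 and 77.1% ± 5.01 (SD, n = 12 each), a light minus dark difference of -6.93 points (two-sided permutation test with 100000 resamples, p = 0.00082). The dip was deeper in the light in all 4 series, with light minus dark at -13.1 points in series 11, -4.47 in series 12, -7.29 in series 26 and -2.88 in series 27.

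The difference between light and dark passed the test in the centre and was not detectable in the flank. Scaled central signal averaged 5.15 ± 0.315 in the light and 5.66 ± 0.490 in the dark (permutation test, p = 0.00592). The flank signal averaged 7.34 ± 0.418 and 7.33 ± 0.362 (n = 12 each, permutation test, p = 0.965), and the shoulders stood at 93.4% and 93.5% of the flank (permutation test, p = 0.948). No position of the class was called between light and dark in wild type (limma, 0 bp, and 0% of all 1500 positions in either direction). At an unadjusted p under 0.05, 550 bp differed, of which 220 bp lay within 150 bp of the middle. The difference was largest 65 bp left of the middle, at -9.08 ± 2.94 points (SE, limma, adjusted p = 0.221). The smallest p-values lay off the centre, from 635 to 665 bp right of the middle, where the difference reached -7.07 ± 1.91 points at 655 bp (SE, limma, adjusted p = 0.156).

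A 24 h cosine fitted to the wild-type mice had an amplitude of 5.01 ± 1.25 points (SE, n = 24) and its minimum at ZT 6.40 ± 0.955 h (permutation test, p = 0.00297). The means by time were 72.6%, 68.7%, 69.2%, 77.5%, 77.9% and 75.9% from ZT02 to ZT22. The largest step between neighbouring times was the rise of 8.29 points from ZT10 to ZT14 (exact permutation test of 4 against 4 mice, p = 0.0571, adjusted over 6 steps p = 0.343), and no step passed.

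In Bmal1-/- mice no difference between light and dark was detectable. The 12 light-phase mice ran from 69.8% to 89.1% with a median of 82.8%, and the 11 dark-phase mice from 67.8% to 97.2% with a median of 82.0%. Light minus dark was -0.866 points (permutation test, p = 0.761), and the series went both ways, at -3.22, 4.31, -1.61 and 0.0368 points for series 5, 8, 9 and 10. The fitted 24 h amplitude was 3.40 ± 1.93 points (SE, n = 23, permutation test, p = 0.223). Along the profile limma called 0 bp (0% of all positions), with 190 bp at an unadjusted p under 0.05, none of them within 150 bp of the middle.

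The difference between the genotypes in light minus dark was 6.81 points (-6.93 ± 4.48 in wild type and -0.122 ± 3.24 in Bmal1-/- series, SD, n = 4 each). It did not pass the exact permutation test (p = 0.0571), since Bmal1-/- series 5 overlapped wild-type series 27. Without replicate 27 it was 8.15 points (exact p = 0.0286), and with a centre of 100 bp on each side it was 7.53 points (exact p = 0.0286). It was 5.83 points with 250 bp (exact p = 0.114), 5.86 with the flank beyond 750 bp (exact p = 0.0857), 4.76 without replicate 11 (exact p = 0.0857) and 5.33 without replicate 8 (exact p = 0.143). Limma on the profile called 0 bp for this difference (0% of all positions), with 320 bp at an unadjusted p under 0.05, none within 150 bp of the middle.

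Set beside the other classes in the same libraries, the class was closest to the intergenic peaks in its genotype difference. Its 8.73 points compared with 10.5 in introns (exact permutation test of the difference of -1.80 points, p = 0.286), 8.0 at the nearer intergenic peaks, those up to 10 kb from a gene (0.732 points, p = 0.714) and 8.48 at those farther away (0.256 points, p = 0.886), by the same exact test. The sign of each intergenic difference turned under other settings. At TSS peaks the genotype difference was 3.47 points, and the class exceeded it by 5.26 points (exact p = 0.0286, adjusted over 4 classes p = 0.114). In wild-type mice the class stood 14.8 ± 2.47 points above the TSS class in relative central signal, and in Bmal1-/- mice 20.1 ± 1.72 points (SD, n = 4 series each).

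For light minus dark in wild type, the class differed from introns by -1.99 points (permutation test, p = 0.248), from near intergenic peaks by -0.847 (p = 0.626), from far intergenic peaks by -2.96 (p = 0.0926) and from TSS peaks by -3.84 (p = 0.0492, adjusted over 4 classes p = 0.185). None passed adjustment, so no separate light response of the class was detectable. Series 11 carried much of these differences: without it the class differed from introns by 0.485 points, from near intergenic peaks by 1.39 and from TSS peaks by -0.330. Without series 27 the difference from TSS peaks was -5.94 points (permutation test, adjusted p = 0.0354).

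**Figure D4:**
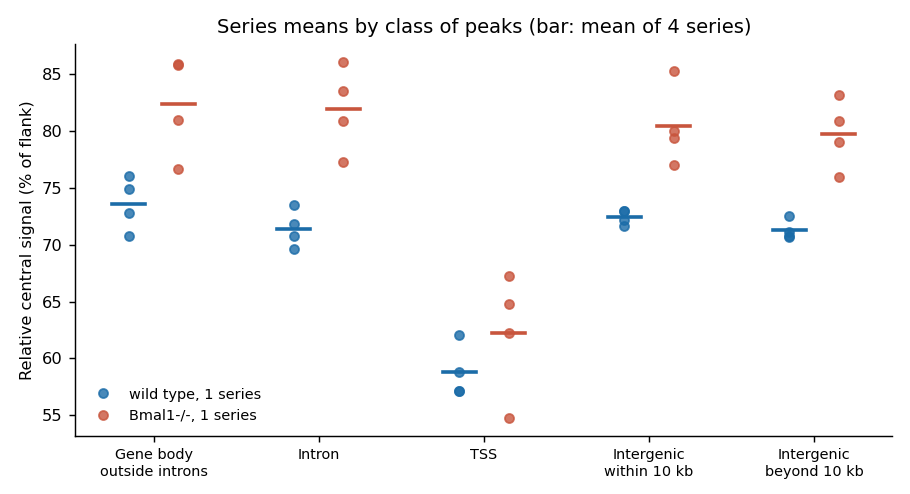
Relative central signal in percent of the flank (y axis) of each replicate series (points) and the mean of 4 series (bars) for the gene body peaks outside introns and the 4 other classes of peaks (x axis). The class sits at 73.6% in wild type and 82.4% in Bmal1-/-, above the TSS class in both genotypes and near the others.

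The deposited sets also split the class by its place in the list. The first 25% of the gene body set holds 53 class peaks, at places 20 to 790 and with a median width of 380 bp, and the other 158 stand at places 814 to 3150 with a median width of 299 bp. In the 53 early peaks the dip stood at 72.7% ± 2.27 with BMAL1 and at 84.1% ± 7.03 without it (SD, n = 4 series each), 11.4 points apart (exact permutation test, p = 0.0571). In the 158 later peaks it stood at 74.0% ± 2.84 and 81.7% ± 3.62, 7.72 points apart (exact permutation test, p = 0.0286). This pass rests on a near tie, with Bmal1-/- series 8 at 77.65% just above wild-type series 11 at 77.63%. Without any 1 of the series 5, 9, 10, 11, 12, 26 or 27, the exact p of the later peaks was 0.0571. The remaining series still did not overlap there. As above, another arrangement of the unequal groups gave an absolute difference at least as large. The genotype difference of the early peaks exceeded that of the later ones by 3.66 points, which did not pass the test (exact permutation test, p = 0.229).

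Between these portions no difference in wild-type light minus dark was detectable. It was -6.07 points in the 53 early peaks (permutation test, p = 0.0513) and -7.28 points in the 158 later peaks (permutation test, p = 0.00103), and the portions differed by 1.21 points (p = 0.696, same test). By series 11, 12, 26 and 27 the early peaks gave -12.0, 4.17, -8.44 and -7.95 points, so series 12 alone went the other way. Without it the early peaks gave -9.48 points (permutation test, p = 0.00514), and without series 11, 26 or 27 they gave -4.07, -5.27 and -5.44 points (p = 0.226, 0.175 and 0.155, same test). In introns, by contrast, the first 25%, or 353 peaks, changed by -8.40 points and the other 1059 by -3.81, a difference of -4.58 points (permutation test, p = 0.00159). The contrast between the class and introns in this respect, 5.79 points, did not pass the test (permutation test, p = 0.121).

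**Figure D5:**
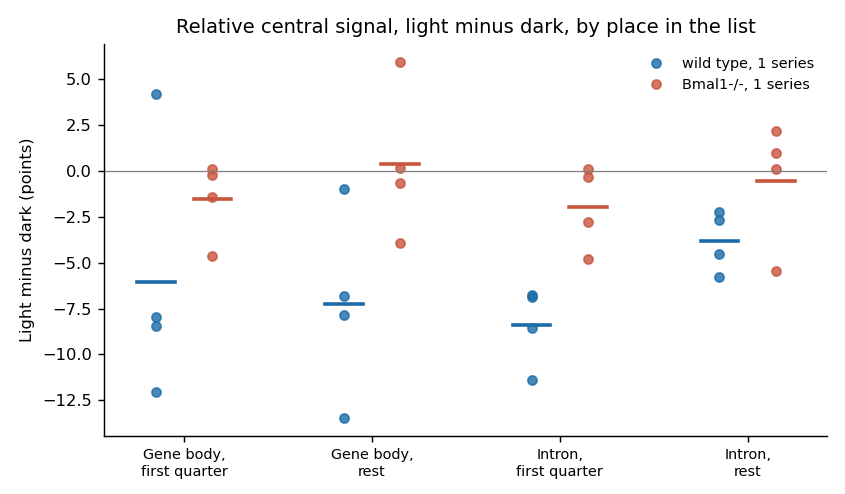
Light minus dark in relative central signal in percentage points (y axis) of each replicate series (points) and their mean (bars) for the first 25% and the rest of the gene body peaks outside introns and of the intron peaks (x axis). In wild type the early and later class peaks average -6.07 and -7.28 points, with series 12 at 4.17 points in the early ones, while the early and later intron peaks average -8.40 and -3.81 points.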

How the data were processed

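MNase-seq signal is coverage that the authors scaled and averaged over peak sets, as the deposited table gives it, with 300 positions per library and set. CASAVA 1.7, Bowtie and the mm9 build come from the submitters' processing notes. No Bowtie version, fragment length, duplicate handling or scaling target is stated there or in the labels. Values are whole multiples of 0.001 after multiplication by the number of peaks, so sums are exact, and subtraction from gene bodies or from all peaks gave the same profile. The table averages 3216 of the 3217 listed peaks, leaving out 1 intergenic peak near a gene. The rule that picks the members uses no signal, but this class of peaks, the measures and the tests were taken up with earlier results of these data known. The split by place in the list and the test of single mice within times were added later.

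A test per peak had been planned and needs values per peak, so windows and positions were tested instead. Python 3.11.15 with scipy 1.17.1 ran exact tests of 4 against 4 series or mice (two-sided) and permutation tests with 100000 resamples. limma 3.58.1 (R 4.3.3, eBayes with trend) ran on percent of flank in 1 fit of 47 libraries, 12 genotype by time groups and 1500 positions of 5 classes. Adjustment was by Benjamini-Hochberg at 0.05. The exact and permutation tests, light minus dark within series, the 24 h cosine and limma's genotype contrast were checked on simulated data. The cosine within series, the test of single mice within times and the other limma contrasts and fits were not. Libraries are separate mice per the series' design text, and neighbouring positions share fragments. Relative depth, inferred from the step in the scaled values, reached 2.09 times that of the shallowest library. Peaks were named by a rule of list order, width and window overlap, of which a few are printed. In 11 groups of 4 mice no outlying mouse was found.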

Additional observations from a re-analysis of the deposited data

How the results depend on the processing

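The 27 results were recomputed under 318 alternatives in all, of which 289 kept their direction and side of the threshold or, for widths, stayed within 1.5 times. The genotype difference was 9.43 points with a centre of 100 bp on each side, 7.09 points with 250 bp and 8.65 points with the flank beyond 750 bp (exact permutation p = 0.0571 each). For the 53 early peaks alone it was 11.4 points, and light minus dark in wild type was -6.07 points. The genotype difference in light minus dark was 7.53 points with a centre of 100 bp. Relative to far intergenic peaks, the genotype difference of the class turned to -0.172 points with a centre of 100 bp and to -0.000159 on the log2 ratio of centre to flank, and relative to near ones to -0.0397 points with 250 bp.

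Leaving out 1 replicate number at a time gave 7.55 to 10.6 points for the genotype difference, -8.28 to -4.88 for light minus dark in wild type and 4.76 to 8.15 for its difference between genotypes. By time, the ranges were 12.3 to 13.9 points at ZT02, 9.41 to 15.9 at ZT06, 10.00 to 12.4 at ZT10, 0.967 to 5.52 at ZT14, 0.151 to 9.92 at ZT18 and 8.52 to 13.3 at ZT22. Against the other classes, the genotype difference ranged from -2.78 to -0.772 (introns), 4.28 to 6.23 (TSS), -0.600 to 1.64 (near intergenic) and -0.554 to 0.872 (far), the intergenic ones turning negative without replicate 10 or 12. Light minus dark ranged from -3.85 to 0.485 against introns, -1.75 to 1.39 against near and -4.28 to -0.578 against far intergenic peaks, and -5.94 to -0.330 against TSS peaks. The width called between genotypes ranged from 250 to 530 bp, the highest without replicate 5, of which 20 bp were lower in Bmal1-/-. It was 130 bp on log2(scaled signal + 5.54), which is not divided by the flank, and 0 bp on the means of 8 series. It was also 0 bp without the 25% of positions of lowest signal, which by construction drops the dip itself and keeps 268 of 300 positions (460 bp at an unadjusted p under 0.05).

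Of 115 same-numbered pairs, 82 correlated above 0.1, the limit set for pairing, and the correlations ran from -0.186 to 0.507. They are not set beside those of differently numbered mice, so they do not show whether same-numbered mice are linked. The main tests of light minus dark within a genotype took no account of the number. With the replicate block, light minus dark in wild type was -6.93 points (exact permutation within series, p = 0.00095) and the wild-type 24 h amplitude 5.01 points (permutation p = 0.00239), and the calls were as without it. With 4 series per genotype, differences that leave any overlap cannot pass the exact test at 0.05.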
